A study of Mus musculus with 12 samples.

Results

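The comparison described here set the 6 ileal arrays of mice fed quercetin against the 6 arrays of mice fed the control diet, with genotype as a covariate, and asked which genes differed in the same direction in wild-type and POR-null mice. All 12 arrays of the series entered it. All 22626 probe sets that were not array controls were kept, which stood for 12393 genes once each gene was represented by its brightest probe set. Of these genes, 5317 (42.9%) lay on the same side of the control diet in both genotypes, and they are the genes described below. The 4 groups, all of male C57BL/6 mice 6 to 8 weeks old, were wild type on quercetin, wild type on control, POR-null on quercetin and POR-null on control, with 3 arrays each. Every array held RNA pooled from 3 mice, taken from the scraped epithelial layer of the lowest of 3 equal parts of the small intestine. All mice were first adapted for 14 days to a powdered diet free of soya. Mice of the quercetin groups then received this diet with quercetin at 6.2 g per kg, stated as 7 mg per mouse, control mice received it alone, and tissue was taken after 24 h. POR is cytochrome P450 reductase, which passes electrons to the P450 enzymes of the endoplasmic reticulum. The tissue in which it was deleted, and how, are not given in the sources used here, and the gene itself is not analysed here.

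Quercetin is a flavonol of fruit and vegetables. In the gut wall it is glucuronidated, sulfated and methylated, mainly by conjugating enzymes and not by P450 enzymes. In cultured human cells it is known as an inhibitor of the induction of heat shock proteins, the chaperones whose transcription heat shock factor 1 switches on when proteins unfold, and flavonoids are also studied as ligands of the aryl hydrocarbon receptor and as inducers of the antioxidant factor Nrf2.

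All values are log2 expression levels, and all differences are quercetin minus control on that scale. Array medians ran from 5.91 to 5.96 on both diets. The difference between 3' and 5' control probe sets of actin, a sign of RNA quality, ran from 0.69 to 1.03 on quercetin arrays and from 0.60 to 0.89 on control arrays. Fabp6, the ileal bile acid binding protein, lay between 12.05 and 12.76 on the 12 arrays. Slc51a, a bile acid exporter subunit, lay between 11.71 and 12.39, and both are ileal genes. Other ileal marker genes were not all high. Slc10a2 lay between 5.22 and 7.52, Fgf15 between 5.31 and 8.88 and Cubn between 11.43 and 12.06. The enterocyte gene Vil1, an actin bundler of the brush border, lay between 12.11 and 12.32. Wild-type control replicate 2 stood apart, at -25.57 on the first principal component, on which the other 11 arrays lay between -10.80 and 10.56, and it had the highest mean score of proximal small intestine genes (0.633, against -0.339 to 0.201 on the others). For some of the results that this array moved, the value without it is given, and results printed without such a value may also depend on it. The scrapings hold many cell types, so fewer cells of a type and less RNA per cell cannot be told apart.

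The quercetin differences of the genotypes did not run together over the transcriptome. Of the 12393 genes, 2625 (21.2%) were higher on quercetin in both genotypes, 2692 (21.7%) were lower in both, 6792 (54.8%) differed in opposite directions and 284 showed no difference in at least 1 genotype. Across genes, the difference in POR-null mice correlated with that in wild-type mice at r = -0.09, with no array shared by the 2 differences. Leaving out 1 array gave r from -0.154 (without wild-type quercetin replicate 1) to 0.0088 (without POR-null quercetin replicate 1). Genes are not independent replicates, and this value is a description. The share with the same direction was 42.0% without wild-type control replicate 2. The median size of the difference was 0.07 in POR-null mice and 0.08 in wild-type mice, against a median SE of 0.0886 for a difference within a genotype.

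**Figure D1:**
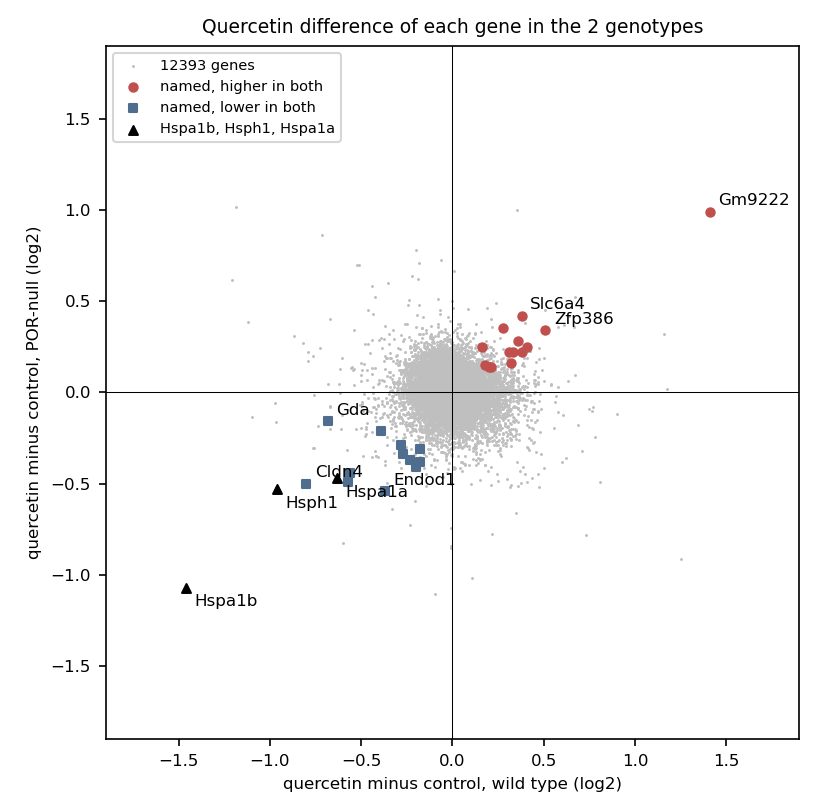
Each grey point is 1 of 12393 genes, with its quercetin minus control difference in POR-null mice (log2, vertical) and in wild-type mice (log2, horizontal). Circles and squares are the genes named for being higher or lower in both genotypes and triangles are 3 heat shock genes; Gm9222 (0.99 in POR-null, 1.41 in wild-type mice) stands alone at the upper right, Hspa1b (-1.07 in POR-null, -1.46 in wild-type mice) lies at the lower left, and 1 gene, Defa31, lies outside the axes.

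With genotype as a covariate, 1 of 22626 probe sets (0.00442%) passed limma's test at an adjusted p under 0.05, that of Gm9222. At an unadjusted p under 0.05 there were 1484 probe sets (6.56%), of which 725 were higher and 759 lower on quercetin. Of these 1484, 1455 had the same direction in both genotypes, against 43.7% of all probe sets. Nothing is read from that count, because the tested difference is the mean of those in the 2 genotypes and a small p favours a shared direction. Among genes the unadjusted count was 784 (6.33%), with 404 higher (3.26%) and 380 lower (3.07%). When each genotype had to reach an unadjusted p under 0.05 on its own, 194 probe sets did so in both. Of these, 71 had the same direction (0.314% of all), with 20 higher and 51 lower, and 123 had opposite directions. For genes the counts were 38 with the same direction, of which 10 were higher and 28 lower, against 77 with opposite directions. No probe set passed when the larger of its p-values in the 2 genotypes was adjusted (limma, smallest adjusted p = 1). The interaction of genotype and diet passed for 0 probe sets by limma (smallest adjusted p = 0.0917), with 2332 at an unadjusted p under 0.05.

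Gm9222, a predicted gene to which no role is given here, was the gene that passed. Its level was 6.07, 7.04 and 7.12 on wild-type quercetin arrays, against 5.41, 5.18 and 5.42 on wild-type control arrays. In POR-null mice it was 6.42, 5.97 and 6.40 on quercetin, against 5.34, 5.10 and 5.39 on control. No quercetin array was as low as any control array, and the quercetin arrays spread more widely than the control arrays, with the lowest value (5.97) on a POR-null and the highest (7.12) on a wild-type array. The difference was 1.20 ± 0.16 (SE), 2.29-fold, with a limma adjusted p of 0.0447, and it was 0.99 ± 0.22 in POR-null and 1.41 ± 0.22 in wild-type mice. Gm9222 has 1 probe set, of a design that can cross-hybridise with related transcripts, so the transcript behind the signal is uncertain. In 20 alternatives the difference lay between 1.09 and 1.32, but the adjusted p exceeded 0.05 in 15 of them (range over the 20, 0.00355 to 0.25), among them 9 of the 12 that left out 1 array.

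None of the other genes named passed. The 12 genes that were higher in both genotypes with the smallest p, predicted genes left aside, had differences of 0.17 to 0.42 and limma adjusted p of 0.412 to 0.663. In 7 of the 12 the quercetin and control arrays did not overlap in either genotype, against 0.242% of all genes, a share from which nothing is read because the same values chose them. Rpl11, a protein of the large ribosomal subunit, was at 10.66, 10.64 and 10.68 on wild-type quercetin arrays, against 9.93 to 10.54 on wild-type control arrays, and at 10.62, 10.72 and 10.73 on POR-null quercetin arrays, against 10.35 to 10.57 on POR-null control arrays. Every quercetin array was above every control array, and the wild-type control arrays were the most spread. The difference was 0.33 ± 0.08 (SE, limma adjusted p = 0.606), and 0.25 without wild-type control replicate 2. The nucleolar protein gene Nol7 (0.27 ± 0.06) and Paxbp1, which encodes a partner of the PAX3 and PAX7 factors (0.24 ± 0.06), also had all 6 quercetin arrays above all 6 control arrays. The other, dimmer probe sets of both genes did not show this, at -0.03 and -0.01 for Nol7 and at 0.04 and -0.02 for Paxbp1. Khdrbs1, the RNA-binding protein Sam68, differed by 0.30 ± 0.07 and was non-overlapping within each genotype, and Psmc4, an ATPase subunit of the proteasome cap, by 0.17 ± 0.05, with complete separation. Cpsf3, the nuclease that cuts pre-mRNA at its 3' end, was chosen for its p in each genotype separately (0.16 ± 0.05), and the cyclin H gene Ccnh differed by 0.18 ± 0.05. The 6 other probe sets of Khdrbs1 differed by -0.06 to 0.25, the others of Cpsf3 by 0.07 and -0.06, and those of Ccnh by 0.27 and 0.00. The probe sets used for Khdrbs1 and Cpsf3 are, like that of Gm9222, of a design that can cross-hybridise.

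Slc6a4 encodes the serotonin transporter, which clears serotonin from around the epithelium. It was at 8.43, 8.49 and 8.45 on wild-type quercetin arrays, against 8.18, 8.12 and 7.93 on wild-type control arrays. In POR-null mice it was at 8.81, 8.47 and 8.97 on quercetin, against 8.04, 8.56 and 8.39 on control. The diets were separate in wild-type mice and overlapped in POR-null mice, where 1 control array lay above 1 quercetin array. The difference was 0.40 ± 0.09 (limma adjusted p = 0.501). Of 7 measured serotonin genes, a list added after the data were seen, Slc6a4 was the only one with an unadjusted p under 0.05, and Tph1, the enzyme that makes gut serotonin, differed by 0.20 in POR-null and -0.05 in wild-type mice. Tfrc, the transferrin receptor that imports iron, was at 9.20, 9.43 and 9.20 on wild-type quercetin arrays, against 9.00, 9.02 and 8.83 on wild-type control arrays, and at 9.48, 9.15 and 9.14 on POR-null quercetin arrays, against 9.12, 9.02 and 8.96 on POR-null control arrays. The diets did not overlap, with 9.14 and 9.12 the closest pair (0.28 ± 0.07; limma adjusted p = 0.634), but its other 2 probe sets, which were dimmer, differed by -0.01 and 0.05. Csf1r, the growth factor receptor of macrophages, differed by 0.20 ± 0.05, and its other probe sets by 0.04 and 0.01. Among enzymes, Mgst1, a membrane glutathione transferase, differed by 0.32 ± 0.07 and the lysine methyltransferase gene Setd6 by 0.31 ± 0.06. A dimmer probe set of each differed by -0.07 for Mgst1 and by 0.00 for Setd6. The zinc finger gene Zfp386 differed by 0.42 ± 0.11, and its other probe set by 0.14.

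**Figure D2:**
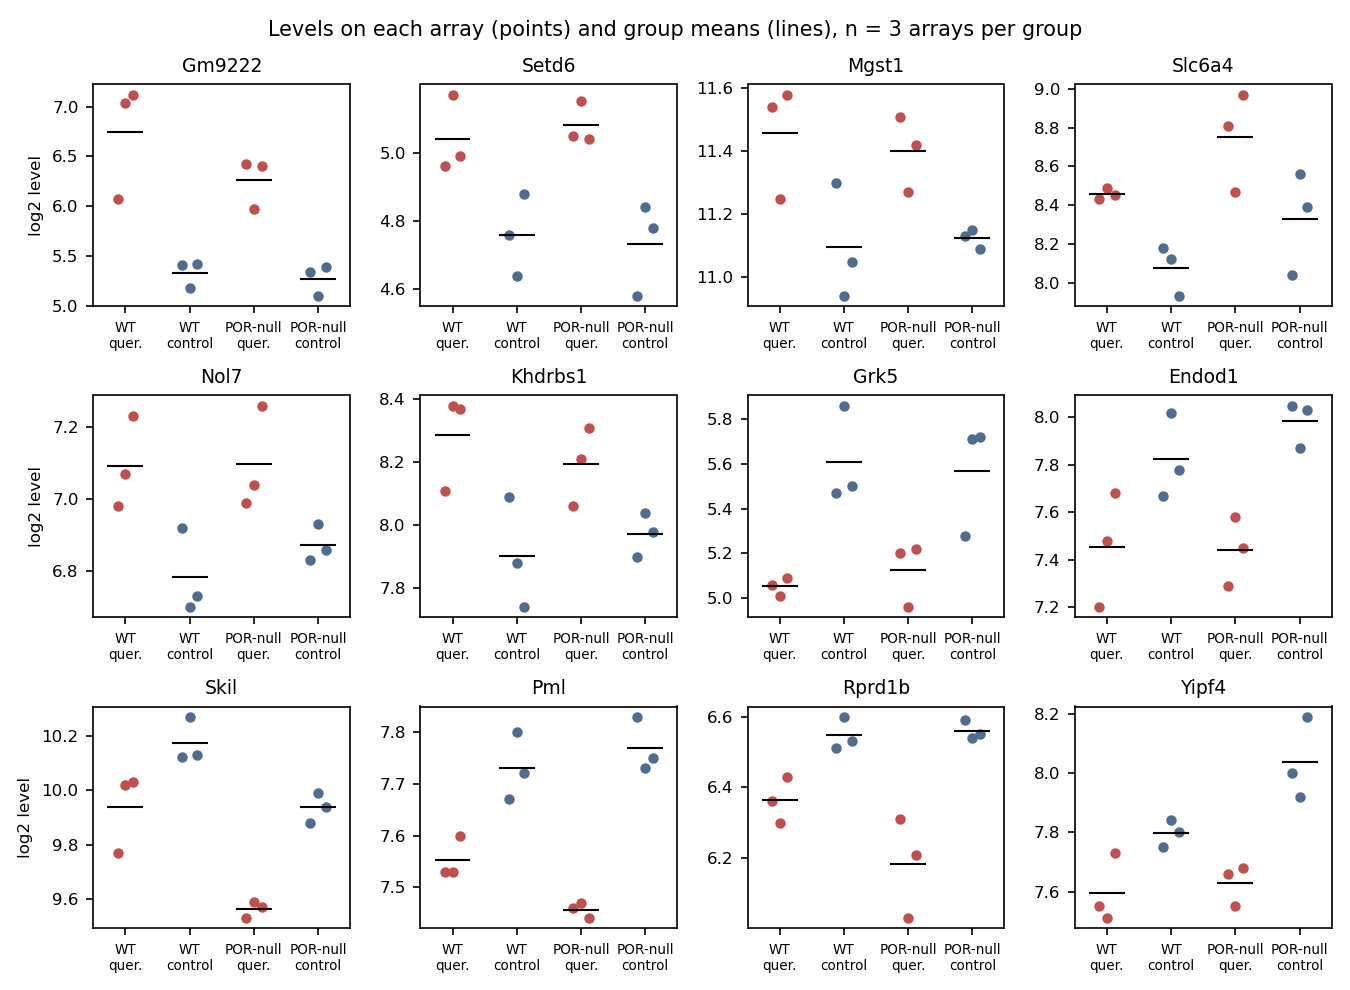
Log2 levels of 12 genes on each array (points, red for quercetin and blue for control) with group means (lines, n = 3 arrays each), Gm9222 and 5 genes higher in both genotypes first and 6 genes lower in both after them. Vertical axes differ between panels and do not start at 0; in Gm9222, Setd6, Nol7, Grk5, Pml, Rprd1b and Yipf4 the 6 quercetin arrays and the 6 control arrays do not overlap.

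The 12 genes lower in both genotypes with the smallest p had differences of -0.65 to -0.24 and limma adjusted p of 0.386 to 0.501. In 7 of them the arrays of the diets did not overlap in either genotype, against 0.323% of all genes, again a description of the values that chose them. Grk5, a kinase that switches off G protein-coupled receptors, was at 5.06, 5.01 and 5.09 on wild-type quercetin arrays, against 5.47, 5.86 and 5.50 on wild-type control arrays. In POR-null mice it was at 5.20, 4.96 and 5.22 on quercetin, against 5.28, 5.71 and 5.72 on control. Every quercetin array was below every control array, with POR-null control replicate 1 the nearest. The difference was -0.50 ± 0.09 (limma adjusted p = 0.386), and without that replicate it was -0.57 with an adjusted p of 0.0364 and 3 probe sets passed in all. Skil, a repressor of TGF-beta signalling, differed by -0.30 ± 0.06, and its other probe set by -0.23. Pml, the organiser of PML nuclear bodies, was at 7.53, 7.53 and 7.60 on wild-type quercetin arrays, against 7.67, 7.80 and 7.72 on wild-type control arrays, and at 7.46, 7.47 and 7.44 on POR-null quercetin arrays, against 7.83, 7.73 and 7.75 on POR-null control arrays. The diets were separate over all 12 arrays, and the difference was small (-0.24 ± 0.05; limma adjusted p = 0.412). Rprd1b, which binds the tail of RNA polymerase II, differed by -0.28 ± 0.06 with full separation, while its dimmer probe set differed by 0.07.

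Cldn4, a claudin of epithelial tight junctions, was at 8.72, 8.96 and 8.83 on wild-type quercetin arrays, against 9.26, 9.97 and 9.67 on wild-type control arrays. In POR-null mice it was at 8.62, 7.91 and 8.63 on quercetin, against 9.23, 8.57 and 8.87 on control. The diets were separate in wild-type mice and overlapped in POR-null mice. The difference was the largest of the 12, -0.65 ± 0.15 (limma adjusted p = 0.501), and it was -0.56 without wild-type control replicate 2. Of 18 measured claudins, a list added after the data were seen, 6 (33.3%) were lower and 3 (16.7%) higher in both genotypes, against 21.7% and 21.2% of all genes. Their median was -0.03, and Cldn4 was the only one with an unadjusted p under 0.05. Marcksl1, a membrane-bound regulator of actin, differed by -0.53 ± 0.12 (-0.44 without wild-type control replicate 2). Its 3 other probe sets, from the brightest to the dimmest, differed by -0.52, -0.23 and -0.06. The Golgi protein gene Yipf4 differed by -0.30 ± 0.06, with complete separation, and the glycosyltransferase gene B3gnt3 by -0.30 ± 0.07. The other probe sets of Yipf4 differed by -0.27 and -0.04. Bak1, a pore-forming protein of apoptosis, was lower by similar amounts in POR-null (-0.29 ± 0.10) and wild-type mice (-0.28 ± 0.10), and its other probe set differed by -0.35. The remaining genes were Endod1 (-0.46 ± 0.09), all 4 of whose probe sets were lower, Tcim (-0.30 ± 0.07) and Gda, guanine deaminase (-0.42 ± 0.10). Gda differed by -0.16 ± 0.10 in POR-null and by -0.68 ± 0.10 in wild-type mice, with an interaction of 0.52 ± 0.14 that did not pass (limma adjusted p = 0.351). It was the 1 gene of these 12 with an unadjusted interaction p under 0.05.

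Separation of the arrays gave a further description of the shared differences. The quercetin arrays lay above the control arrays without overlap in each genotype for 30 genes (0.242%) and below them for 40 (0.323%), while 138 genes (1.11%) were separated in opposite directions. Over both genotypes together, the 6 quercetin arrays were higher than every control array for 15 genes (0.121%) and lower than every one for 13 (0.105%). Beside those already named, the 15 included Cnot7, a deadenylase of the CCR4-NOT complex (0.21), Mrps17, a protein of the mitochondrial ribosome (0.26), the ubiquitin and SUMO ligase Topors (0.14) and Orc3, a subunit of the origin recognition complex (0.11). The 13 included Mxd1, which competes with Myc for their partner Max (-0.42), the endosomal GTPase Rab21 (-0.14), the focal adhesion protein Lpp (-0.24) and Ush1c, the brush border scaffold harmonin (-0.17). These genes were named after their values were seen.

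Among the 28 genes lower at an unadjusted p under 0.05 in each genotype, several had nearly equal differences in both. Mcoln1, a calcium channel of lysosomes, differed by -0.21 in POR-null and -0.21 in wild-type mice, and Rala, a Ras-like GTPase of exocytosis, by -0.20 in POR-null and -0.20 in wild-type mice. The potassium channel gene Kcnk1 (-0.23 ± 0.06), the epithelial transcription factor Foxa1 (-0.21 ± 0.06), the RNA-binding protein Rbm47 (-0.28 ± 0.08) and Atg4b, a protease of autophagy (-0.19 ± 0.06), belonged to the same group. Their limma adjusted p lay between 0.647 and 0.663, and they too were named after their values were seen.

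Heat shock chaperones were mostly lower on quercetin in both genotypes. Their list, like the others described below, was chosen with earlier results of these data known, so the shares given are a description. Of 22 measured members, 13 (59.1%) were lower and 3 higher in both, against 21.7% and 21.2% of all genes, with a median of -0.11, against 0.00 over all genes. None passed, and 8 had an unadjusted p under 0.05, 6 lower and 2 higher, or 36.4% of the list against 6.33% of all genes. Hspa1b and Hspa1a encode the inducible Hsp70, Hsph1 its exchange factor Hsp110 and Dnajb1 its Hsp40 partner. The upstream windows of Hspa1a, Hspa1b and Hsph1 are shown because these are the strongly inducible members whose differences were largest, and that of Hspe1, a mitochondrial chaperonin, because it holds the same motif and was not lower in both. Each is the 250 bases before the first listed start, from RefSeq on GRCm38.p6, read 5' to 3' on the strand of the gene, with capitals for the paired GAA and TTC of a heat shock element.
Hspa1a, chr17:34972157-34972406, minus strand: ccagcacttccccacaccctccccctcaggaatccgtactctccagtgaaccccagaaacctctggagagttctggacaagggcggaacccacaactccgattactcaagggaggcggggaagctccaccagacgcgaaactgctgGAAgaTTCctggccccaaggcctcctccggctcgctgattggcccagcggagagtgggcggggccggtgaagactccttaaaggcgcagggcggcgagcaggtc
Hspa1b, chr17:34959239-34959488, minus strand: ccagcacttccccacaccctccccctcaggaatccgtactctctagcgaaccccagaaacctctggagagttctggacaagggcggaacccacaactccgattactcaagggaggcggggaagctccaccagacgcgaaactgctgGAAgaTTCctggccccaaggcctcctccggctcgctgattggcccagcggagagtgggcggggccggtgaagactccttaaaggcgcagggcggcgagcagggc
Hsph1, chr5:149636337-149636586, minus strand: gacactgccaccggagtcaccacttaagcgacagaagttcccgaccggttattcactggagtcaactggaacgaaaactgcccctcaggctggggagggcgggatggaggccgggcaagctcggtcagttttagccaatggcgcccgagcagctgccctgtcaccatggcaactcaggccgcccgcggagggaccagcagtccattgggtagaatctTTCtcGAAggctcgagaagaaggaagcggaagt
Hspe1, chr1:55087898-55088147, plus strand: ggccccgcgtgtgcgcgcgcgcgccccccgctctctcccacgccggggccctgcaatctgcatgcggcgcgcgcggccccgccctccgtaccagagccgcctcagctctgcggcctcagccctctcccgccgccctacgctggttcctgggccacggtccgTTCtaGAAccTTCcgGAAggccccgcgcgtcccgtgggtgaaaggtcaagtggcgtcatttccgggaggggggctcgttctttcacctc

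The motif searched was GAANNTTC or TTCNNGAA, each of which is its own reverse complement, so that 1 strand covers both. The Hspa1a and Hspa1b windows were identical at 247 of 250 positions, and each held 1 motif starting 104 bases before the start. The Hsph1 window held 1, starting 33 bases before it, and the Hspe1 window 3 overlapping ones, starting 89 to 79 bases before it. The first listed windows of 3489 of 27025 genes (12.9%) held the motif. It was in 4 of 11 windows (36.4%) of heat shock genes lower in both genotypes and in 3 of 7 (42.9%) of the other measured members with a window. Dnajb1, the heat shock gene with the smallest p, had no match, which says only that these letters are not in its window.

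Hspa1b was at 6.29, 7.33 and 6.47 on wild-type quercetin arrays, against 7.04, 8.79 and 8.65 on wild-type control arrays. In POR-null mice it was at 7.30, 6.67 and 6.45 on quercetin, against 7.35, 9.27 and 7.02 on control. The control arrays fell into high and low ones: wild-type control replicates 2 and 3 and POR-null control replicate 2 lay at 8.65 or above, and the other 3 lay among or near the quercetin arrays, so that the diets overlapped in both genotypes. The difference was -1.27 ± 0.37 (limma adjusted p = 0.663), and the 2 other probe sets differed by -1.21 and -1.07. Hspa1a differed by -0.55 ± 0.16, and because it is a near-identical copy, probe sets of either gene may read both. Hsph1 was high on the same 3 control arrays, at 7.88, 8.59 and 8.61, against 7.00 to 7.14 on the other 3 control arrays and 6.22 to 7.40 on the quercetin arrays (-0.74 ± 0.29). Dnajb1 was at 7.82, 7.85 and 7.73 on wild-type quercetin arrays, against 8.16, 8.16 and 7.86 on wild-type control arrays, and at 7.91, 7.89 and 7.94 on POR-null quercetin arrays, against 8.15, 8.27 and 8.05 on POR-null control arrays. Its diets did not overlap in either genotype, and only wild-type control replicate 3, at 7.86, lay below the POR-null quercetin arrays (-0.25 ± 0.06; limma adjusted p = 0.544).

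The co-chaperone genes Bag3 (-0.22 ± 0.07) and Chordc1 (-0.36 ± 0.14) completed the members lower at an unadjusted p under 0.05. Hspa4 (0.18) and the small heat shock protein gene Hspb8 (0.12) were those higher at that threshold, and the mitochondrial chaperonin Hspd1 differed by 0.07. The mean score of the list was highest on POR-null control replicate 2 (0.300) and wild-type control replicate 3 (0.264). Without the first of these, 10 of 22 members (45.5%) were lower in both genotypes and the median was -0.03 in POR-null mice, and without the second the median was -0.03 in wild-type mice. What set these control arrays apart was not tested.

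Immediate early genes, which cells switch on within minutes of a stimulus, were distributed likewise. Of 24 measured members, 13 (54.2%) were lower and 2 higher in both genotypes, against 21.7% and 21.2% of all genes, with a median of -0.08. An unadjusted p under 0.05 was reached by 8 (33.3%, against 6.33% of all genes), 7 of them lower. Atf3, a stress-induced transcription factor, was at 7.94, 8.04 and 8.15 on wild-type quercetin arrays, against 8.61, 9.00 and 8.41 on wild-type control arrays. In POR-null mice it was at 8.19, 8.27 and 7.88 on quercetin, against 8.78, 8.83 and 8.10 on control. The diets were separate in wild-type mice, and 1 POR-null control array lay among the quercetin arrays (-0.54 ± 0.13; limma adjusted p = 0.501). The AP-1 subunit genes Fos (-0.38 ± 0.16), Jun (-0.22 ± 0.07) and Jund (-0.14 ± 0.05), the growth-induced factor Egr1 (-0.37 ± 0.16), the antiproliferative gene Btg2 (-0.18 ± 0.08) and the MAP kinase phosphatase Dusp6 (-0.30 ± 0.13) were the others lower, and Myc (0.19 ± 0.08) was the member higher. The mean score of the list was highest on wild-type control replicate 1, at 0.145, which scored -0.053 for heat shock genes. Wild-type control replicate 2 came next, at 0.113, and was the third highest for heat shock genes, while POR-null control replicate 2 scored 0.036. ER stress genes, a list that shares Atf3, had 14 of 24 members (58.3%) lower in both genotypes with a median of -0.04, and 2 with an unadjusted p under 0.05 (8.33%, near the 6.33% of all genes), Atf3 and Sel1l, a subunit of the ER-associated degradation complex (-0.18 ± 0.07). The number of ER stress genes lower in both genotypes was 8 (33.3%) without POR-null control replicate 2.

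**Figure D3:**
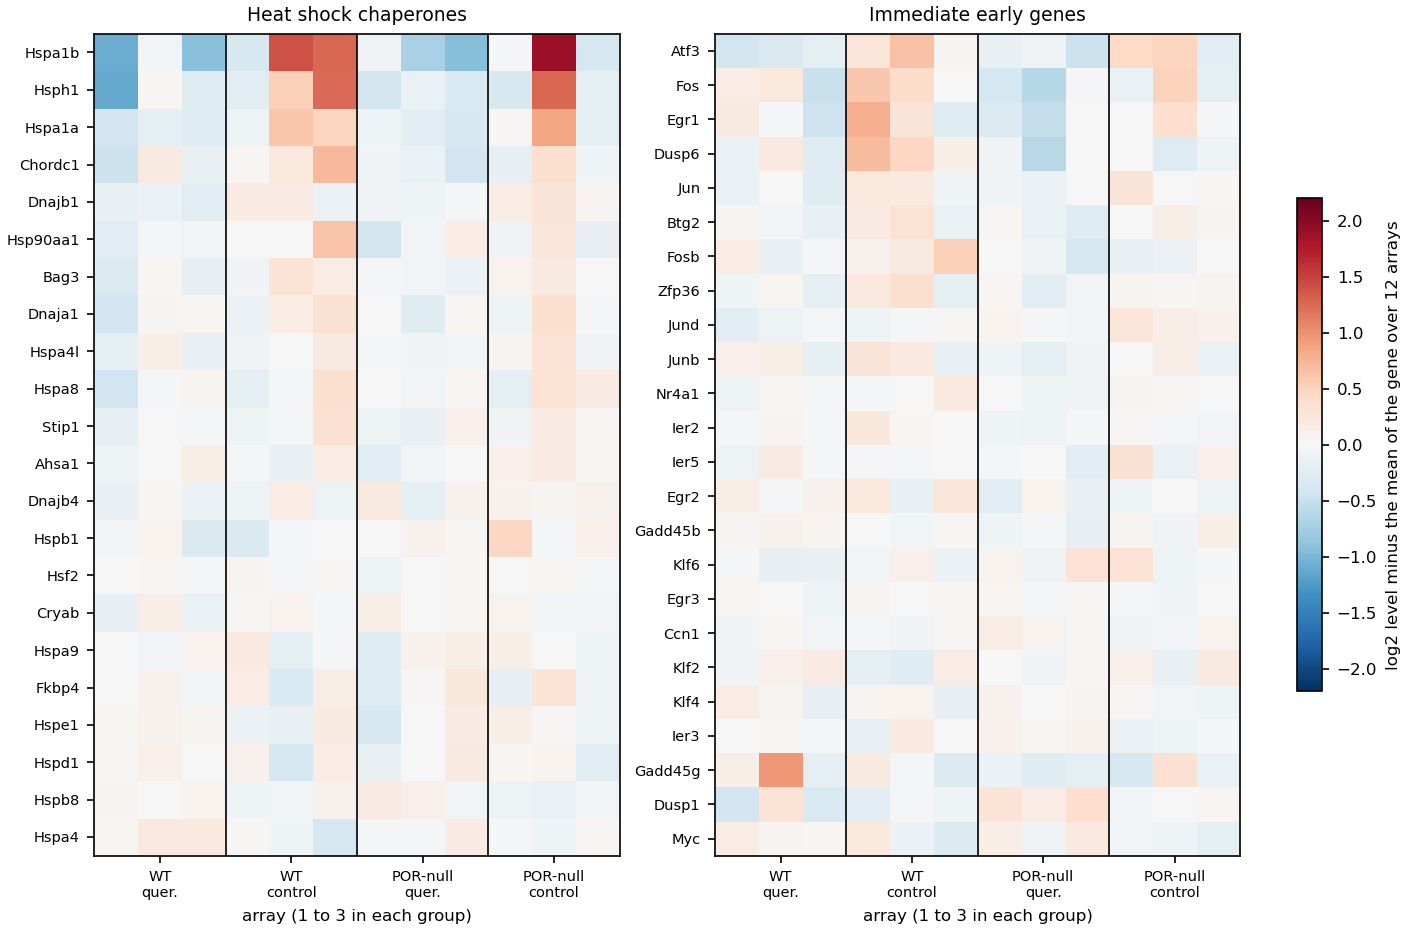
Log2 level minus the mean of each gene over the 12 arrays (colour, red above and blue below), for 22 heat shock chaperones (left) and 24 immediate early genes (right), with 3 arrays per group in columns and genes ordered by their difference. In the heat shock genes at the top, wild-type control replicates 2 and 3 and POR-null control replicate 2 are the dark red columns, while for the immediate early genes at the top wild-type control replicates 1 and 2 and, for Atf3, Fos and Egr1, POR-null control replicate 2 are red.

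Genes of ribosomes, proteasomes and cell division were more often higher than lower on quercetin in both genotypes. Their median differences were higher in wild-type mice, but for cell division genes this did not hold without wild-type control replicate 2. The difference between genotypes was not tested for these lists. Of 43 measured cytosolic ribosomal protein genes, 27 (62.8%) were higher and 1 lower in both genotypes, against 21.2% and 21.7% of all genes, with a median of 0.14. An unadjusted p under 0.05 was reached by 19 (44.2%, against 6.33% of all genes), all higher. The median was 0.02 in POR-null mice and 0.27 in wild-type mice. Rpl10a was at 11.05, 11.08 and 11.02 on wild-type quercetin arrays, against 10.91, 10.46 and 10.80 on wild-type control arrays, and at 10.99, 11.21 and 10.97 on POR-null quercetin arrays, against 10.68, 10.83 and 10.95 on POR-null control arrays. Its 6 quercetin arrays lay above its 6 control arrays, with 10.97 and 10.95 the closest pair (0.28 ± 0.08; limma adjusted p = 0.663). Of the 12 genes whose introns hold small nucleolar RNAs, 7 (58.3%) were higher in both genotypes, but Gas5 differed by 0.02 in POR-null and 1.18 in wild-type mice. Wild-type control replicate 2 had the lowest ribosomal score of the 12 arrays (-0.293). Without it the wild-type median was 0.18, and without POR-null control replicate 2 the number higher in both genotypes was 20 and the POR-null median -0.01.

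Of 34 measured proteasome subunit genes, 17 (50.0%) were higher and 1 lower in both genotypes, against 21.2% and 21.7% of all genes. Their median was 0.06, and it was 0.00 in POR-null and 0.13 in wild-type mice. Psmc4 and Psmc5, ATPases of the 19S cap, were the members with an unadjusted p under 0.05 in each genotype alone. Psmc5 was at 8.43, 8.55 and 8.60 on wild-type quercetin arrays, against 8.45, 8.22 and 8.22 on wild-type control arrays, and at 8.41, 8.62 and 8.68 on POR-null quercetin arrays, against 8.40, 8.41 and 8.31 on POR-null control arrays. In wild-type mice 1 control array lay above the lowest quercetin array, and the lowest POR-null quercetin array equalled the highest control array to 2 decimals (0.21 ± 0.06; limma adjusted p = 0.663). The number of members higher in both genotypes was 11 without POR-null control replicate 3 and 26 without POR-null quercetin replicate 1. Of 35 measured cell cycle and DNA replication genes, 18 (51.4%) were higher and 2 lower in both, against the same shares of all genes, with a median of 0.08. The replication clamp loader Rfc4 (0.17 ± 0.07) and the mitotic checkpoint gene Mad2l1 (0.22 ± 0.09) were higher in both genotypes, by 0.17 and 0.24 in POR-null and by 0.16 and 0.19 in wild-type mice (0.06 and 0.03 without wild-type control replicate 2), whereas the replicative helicase subunit Mcm6 differed by 0.03 in POR-null and 0.58 in wild-type mice. The list median was 0.07 in POR-null and 0.16 in wild-type mice. Without wild-type control replicate 2, which had the lowest score for this list (-0.317), it was 0.07 in POR-null and 0.03 in wild-type mice. With genotype as a covariate the median was then 0.02, and 15 members (42.9%) were higher in both genotypes. Mcm6 differed by 0.47 in wild-type mice without that array.

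**Figure D4:**
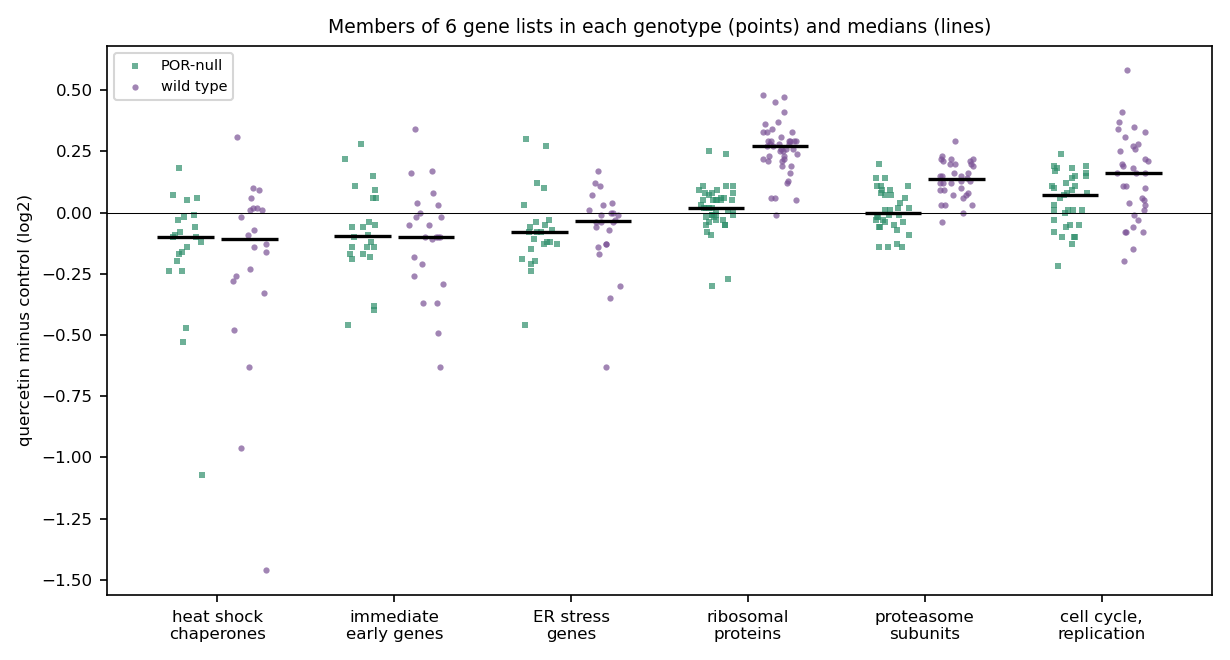
Quercetin minus control difference (log2) of each measured member of 6 gene lists, in POR-null mice (green squares) and wild-type mice (purple circles), with medians as lines. The medians of heat shock genes are -0.10 in POR-null and -0.11 in wild-type mice, while those of ribosomal protein genes are 0.02 in POR-null and 0.27 in wild-type mice.

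Of 35 measured P450 genes of families 1 to 4, 7 (20.0%) were higher and 8 (22.9%) lower in both genotypes, near the 21.2% and 21.7% of all genes. Their median was 0.00, and 1 (2.86%, against 6.33% of all genes) had an unadjusted p under 0.05, Cyp3a13, an intestinal P450 (0.16 ± 0.06). Of 12 aryl hydrocarbon receptor genes, 3 (25.0%) were higher and 1 (8.33%) lower in both. Its classic target Cyp1a1 differed by 0.17 ± 0.15 in POR-null and -0.29 ± 0.15 in wild-type mice (-0.08 without wild-type control replicate 2). Of 28 Nrf2 antioxidant genes, 4 (14.3%) were higher and 9 (32.1%) lower in both, against 21.2% and 21.7% of all genes. All 4 with an unadjusted p under 0.05 (14.3%, against 6.33% of all genes) were lower. Gclm, the modifier subunit of the enzyme that starts glutathione synthesis, was at 8.69, 8.74 and 8.37 on wild-type quercetin arrays, against 9.04, 9.17 and 8.47 on wild-type control arrays, and at 8.55, 8.48 and 8.35 on POR-null quercetin arrays, against 8.67, 8.79 and 9.06 on POR-null control arrays. The diets were separate in POR-null mice and overlapped in wild-type mice (-0.34 ± 0.11; limma adjusted p = 0.664). Gsr, glutathione reductase, differed by -0.19 ± 0.06, with no overlap of diets in either genotype, while the Nrf2 targets Nqo1 and Hmox1 differed by -0.04 and 0.08. Gpx2, the gut glutathione peroxidase, and Me1, malic enzyme, differed by -0.07 and -0.14 in POR-null and by -0.67 and -1.10 in wild-type mice. Without wild-type control replicate 2, Gpx2 differed by -0.53 and Me1 by -0.62 in wild-type mice. With genotype as a covariate, Me1 then differed by -0.35. Of 18 conjugation genes, 7 (38.9%, against 21.2% of all genes) were higher and 3 lower in both, and the sulfotransferase Sult1a1 (0.23 ± 0.07) was the 1 with an unadjusted p under 0.05. Of 20 glutathione S-transferases, 7 (35.0%, against 21.7% of all genes) were lower and 3 higher in both, and Mgst1 was 1 of the 3.

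Cell type lists differed in the same direction in part. Of 8 measured tuft cell genes, 6 (75.0%, against 21.7% of all genes) were lower in both genotypes and none was higher. The median was -0.06 in POR-null and -0.25 in wild-type mice. Avil, a tuft cell actin regulator, was at 6.42, 6.16 and 6.24 on wild-type quercetin arrays, against 6.62, 7.42 and 6.79 on wild-type control arrays, and at 6.35, 6.18 and 6.15 on POR-null quercetin arrays, against 6.34, 6.13 and 6.82 on POR-null control arrays. The diets were separate in wild-type mice and overlapped in POR-null mice (-0.44 ± 0.14; limma adjusted p = 0.664). The tuft score was 0.573 on wild-type control replicate 2, above the -0.237 to 0.214 of the other arrays. Without that array 6 of 8 genes were still lower in both genotypes, with a median of -0.06 in POR-null and -0.16 in wild-type mice, and Avil differed by -0.30. Of 23 T cell and intraepithelial lymphocyte genes, 10 (43.5%) were higher and 2 (8.7%) lower in both, against 21.2% and 21.7% of all genes. Their medians were 0.07 in each genotype. Of 19 enteroendocrine genes, 8 (42.1%) were higher and 1 (5.26%) lower, among them the hormone Gip (0.36 ± 0.15, and 0.50 without wild-type control replicate 2). Igha, the constant region of IgA (0.51 ± 0.17), and Jchain, which joins IgA dimers (0.48 ± 0.19), were higher in both genotypes. Only 3 of 15 B and plasma cell genes (20.0%, near the 21.2% of all genes) were. Of the others, 1 was lower in both and 11 differed in opposite directions or showed no difference in a genotype. The medians of this list had opposite signs, -0.13 in POR-null and 0.2 in wild-type mice. Of its 3 members with an unadjusted p under 0.05, 2 were higher and 1 was lower. Of 18 enterocyte genes 3 (16.7%) were higher and 3 (16.7%) lower in both. None of the members of these lists passed limma's test.

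**Figure D5:**
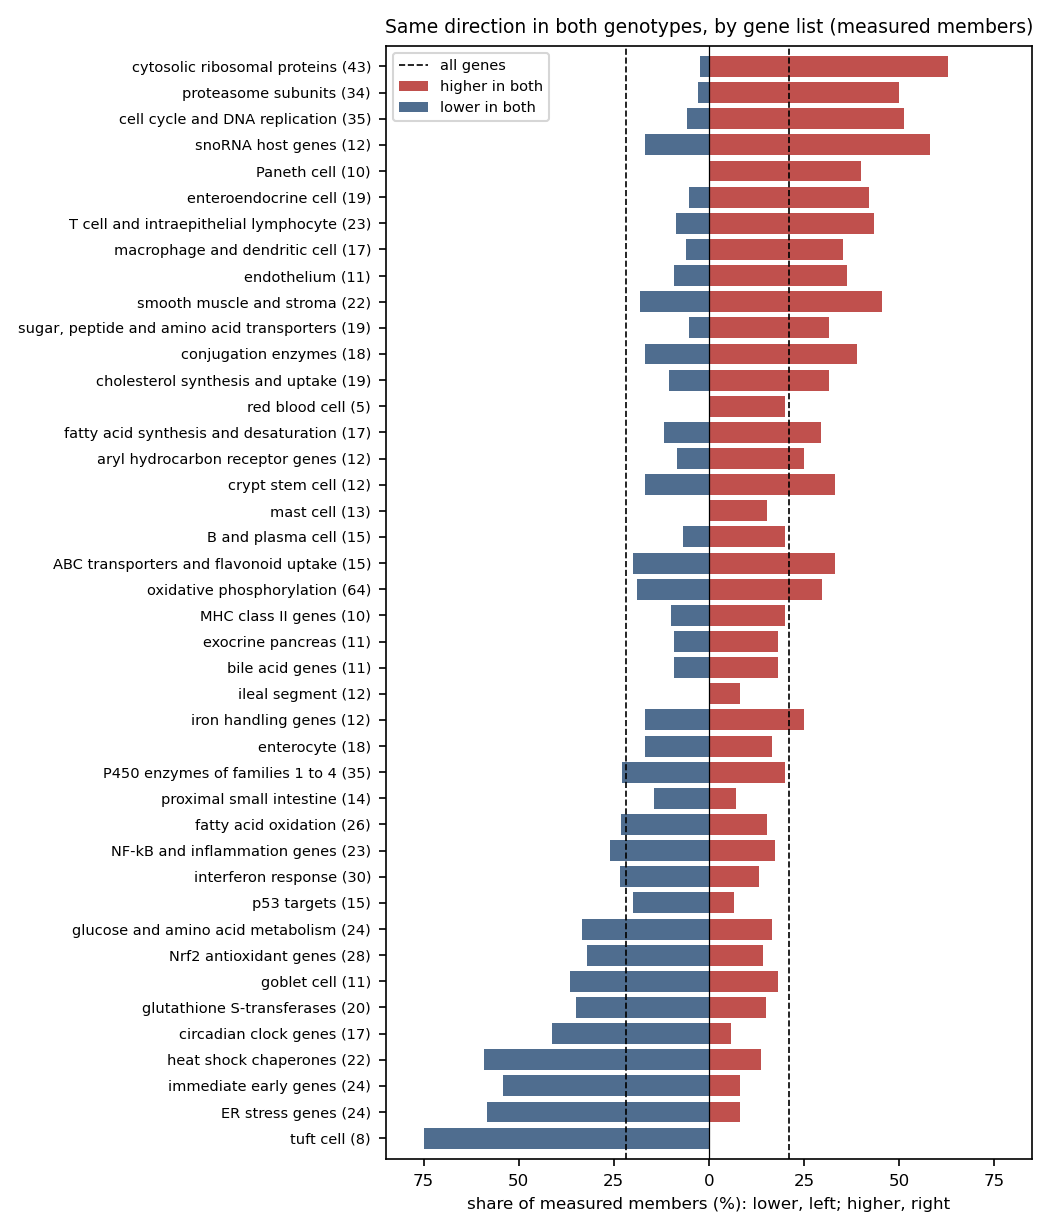
Share of measured members (%) of 42 gene lists that were higher on quercetin in both genotypes (red, to the right) or lower in both (blue, to the left), with the number measured in parentheses and dashed lines at the shares of all genes, 21.2% and 21.7%. Ribosomal, proteasome, cell cycle and small nucleolar RNA host genes extend farthest to the right, and tuft cell, ER stress, heat shock and immediate early genes farthest to the left.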

How the data were processed

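The values, deposited by the authors on the log2 scale for each probe set of the Affymetrix 430A design, were used unchanged. MAS5 and RMA are named in the submitters' processing notes, and neither a role nor a version is given. The design has 22690 probe sets, and 64 of these, which serve as array controls, were dropped. Of the rest, 20380 carried 1 gene symbol, 691 several and 1555 none, and 20351 symbols were updated by gene ID to the table of GRCm38.p6, used for names. Levels and differences of different probe sets share no common scale.

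Limma 3.58.1 in R 4.3.3 fitted genotype and diet to the 12 arrays (9 residual degrees of freedom), and a mean per group for differences within a genotype and the interaction. The Benjamini-Hochberg adjustment ran over 22626 probe sets at a threshold of 0.05. The SE values come from the spread between pools of mice, and 3 arrays per group limit the precision. The fit was tested on simulated data. Genes named were those that passed, for each direction 12 with the lowest p among genes with the same direction in both genotypes, without predicted genes, the 6 of each direction with the smallest larger p of the 2 genotypes, and up to 4 members of each list with the smallest p; others named were chosen after their values were seen. Members and the 42 gene lists (789 genes measured) were chosen with earlier results of these data known, and lists are described without a test. Alternatives were array centring, quantile normalization, filters on dim probe sets, array weights, trend and robust moderation, a mean per group model, gene means, a replicate block, and each array left out. Tables and figures used Python 3.11.15, pandas 2.3.3 and matplotlib 3.10.9.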

Additional observations from a re-analysis of the deposited data

Results flagged for a closer look

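Lyve1, a receptor of lymphatic vessel cells, differed in opposite directions in the genotypes on every array. It was at 6.02, 5.85 and 5.77 on POR-null quercetin arrays, all above the 5.71, 5.71 and 5.69 on POR-null control arrays, and at 5.73, 5.74 and 5.73 on wild-type quercetin arrays, all below the 5.77, 5.79 and 5.76 on wild-type control arrays. The difference between genotypes was 0.22 ± 0.10 (log2, SE) and did not pass (limma adjusted p = 0.478). Its other probe set differed by -0.06 with genotype as a covariate. Arrays separated in opposite directions in the genotypes for 138 of 12393 genes (1.11%), so this pattern does not single out Lyve1.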

How the results depend on the processing

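The 26 genes named for the shared difference kept its direction in both genotypes under every alternative run for them. The number of probe sets past the adjusted threshold was 0 with array weights, arrays centred on their median, trend and robust moderation, the mean per group model or quantile normalization, and 0 to 3 when 1 array was left out. It was also 0 with only levels above the median, but that filter dropped the Gm9222 probe set itself. Gm9222 had adjusted p of 0.062 with array weights, 0.0779 centred, 0.25 with trend and robust moderation, 0.0512 by group means and 0.0696 after quantile normalization. The cause was not tested, except that fewer arrays or probe sets entered where some were left out. With only levels above the median, 906 probe sets had an unadjusted p under 0.05, 36 had one in both genotypes with the same direction, and 3339 of 7310 genes had the same direction. Leaving out 1 array gave 1139 (without wild-type control replicate 2) to 1865 (without wild-type control replicate 1), 51 to 125, and 5080 to 5783 genes; the 125 also came without wild-type control replicate 1. The interaction passed for 2 probe sets with trend and robust moderation and for 0 to 9 when 1 array was left out. Among lists, leaving out 1 array gave 10 to 15 heat shock, 12 to 14 immediate early and 8 to 14 ER stress genes lower, and 20 to 32 ribosomal, 13 to 22 cell cycle and 11 to 26 proteasome genes higher in both genotypes.

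The replicate numbers did not pair the arrays: same-numbered arrays of different groups had correlations of their deviations from -0.179 to 0.162. With the replicate block the interaction passed for 3 probe sets, Gm9222 had an adjusted p of 0.0545 and Lyz2, a lysozyme of macrophages, passed (0.60, adjusted p = 0.0482).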

Other observations

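By size alone, a rule chosen after the data were seen, the largest difference shared by both genotypes belonged to Defa31, an antimicrobial alpha-defensin of Paneth cells. It was at 12.30 on 1 POR-null quercetin array and 10.22 on 1 wild-type quercetin array, while the other 4 quercetin arrays lay between 5.69 and 5.95 and the 6 control arrays between 5.46 and 5.86. Its difference of 2.00 ± 0.97 (log2, SE) therefore rested on 2 arrays and did not pass (limma adjusted p = 0.77). Alpha-defensin genes are near-identical copies, so which of them the probe set reads is uncertain. Car1, a carbonic anhydrase, was likewise high on 2 quercetin arrays, at 10.17 on wild-type replicate 2 and 7.54 on POR-null replicate 2, against 6.04 to 6.83 on the other 10 arrays (0.74 ± 0.54).

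Gzmk, a granzyme of cytotoxic lymphocytes, was at 6.25, 6.97 and 7.39 on POR-null quercetin arrays, above the 5.46, 6.04 and 6.12 on POR-null control arrays, and at 5.58, 7.26 and 7.17 on wild-type quercetin arrays, around the 6.46, 6.29 and 6.20 on wild-type control arrays (0.68 ± 0.27; limma adjusted p = 0.712). Among iron genes, Slc46a1, a folate and heme transporter, was lower by similar amounts in POR-null (-0.33) and wild-type mice (-0.32), whereas the iron exporter Slc40a1 differed by -1.11 in POR-null and -0.10 in wild-type mice. Without wild-type control replicate 2 the wild-type values were -0.13 for Slc46a1 and -0.29 for Slc40a1. Of 17 circadian clock genes, 7 (41.2%) were lower and 1 (5.88%) higher in both genotypes, against 21.7% and 21.2% of all genes. Bhlhe40, a clock repressor that also responds to stress, differed by -0.45 ± 0.12 with no overlap of diets in either genotype. None of these genes passed limma's test.

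Of 64 oxidative phosphorylation genes, 19 (29.7%) were higher and 12 (18.8%) lower in both genotypes, against 21.2% and 21.7% of all genes, and the median difference was 0.01. Of 10 Paneth cell genes, 4 (40.0%) were higher and none lower in both (median 0.10), and of 30 interferon response genes 4 (13.3%) were higher and 7 (23.3%) lower (median 0.01). No member of the interferon or Paneth cell lists had an unadjusted p under 0.05. Wild-type control replicate 2 had the lowest Paneth cell score (-0.310, against -0.139 to 0.257 on the others), and the Paneth cell share may depend on it.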
